A study of Mus musculus with 6 samples.

Results

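The 47 genes described here encode the proteins that attach chromosomes to the mitotic spindle, move them, delay separation until all are attached, and then take the cell out of mitosis. They are a named list in 9 groups by role, and a probe set was counted for a gene where the array annotation gave that gene as its only symbol. All 47 were measured, out of 18193 genes in all, by 110 of the 34945 probe sets used. The list was chosen with earlier results from these arrays known, so no test was made of the list as a whole.

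At mitosis the centromere carries a kinetochore, whose outer layer grips microtubules. Unattached kinetochores keep the spindle checkpoint active, and this holds back the anaphase-promoting complex (APC/C), a ubiquitin ligase. Once released, the APC/C marks securin and mitotic cyclins for destruction, separase opens cohesin, and the sister chromatids part. In airway epithelium most of these genes are used mainly by dividing cells. Inhaled sulfur dioxide (SO2) is used as an injury that removes luminal cells, after which basal cells, the stem cells of this epithelium, divide.

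Tracheal epithelium was taken from adult male C57Bl/6 mice that had breathed 500 ppm SO2 in air for 4 h, 48 h after the injury (48 hpi), and from normal control mice without the exposure. Each group held 3 arrays, and each array held RNA pooled from 4 tracheas. In both groups the epithelium was peeled off after Dispase digestion, dissociated with trypsin and depleted of CD45+ leukocytes. The mice carried no transgene that the labels name, and a pool hides how far single animals differed.

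Values are log2 expression after robust multi-chip analysis (RMA), and every change is 48 hpi minus control on that log2 scale, so that 1 unit is a doubling. Each gene is given by its brightest probe set, by the mean over all 6 arrays. Calls were made with limma, where the p adjusted over all genes had to be under 0.05. Background was taken as the level that 95% of 79 probe sets for olfactory and related receptors stay under, 4.81 at 48 hpi and 4.94 in control. All 7 epithelial markers were above background in both groups, with a mean level of 11.6 to 11.7 at 48 hpi and 11.4 to 11.5 in control. Of 10 leukocyte markers, 3 were above background at 48 hpi and 4 in control, and the defining marker Ptprc, which encodes CD45, was within it in both. In a bulk sample, more dividing cells, a larger share of them after luminal cells are lost, and more RNA per dividing cell cannot be told apart.

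The mitotic genes rose almost as one group in the injured epithelium. Of the 47 genes, 45 were higher at 48 hpi, 1 was lower (Pttg1) and 1 was not called (Kif15). Among all genes, 19.4% were called higher and 17.5% lower. The median change of the mitotic genes was 3.04, with quartiles of 2.74 and 3.28, against a median of -0.02 over all 18193 genes. For 8 of them the control mean was within background, so that the measured change is only a guide and the rise is given as "at least" a fold over the control background. With these 8 at that bound the median was 3.00. A change of at least 1 with a call was seen in 43 of the 47 genes, against 5.10% of all genes. Those 43 genes also changed by at least 2, as did 226 genes in all, and 25 of the 89 genes in all that changed by at least 3 were mitotic genes of the list.

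**Figure D1:**
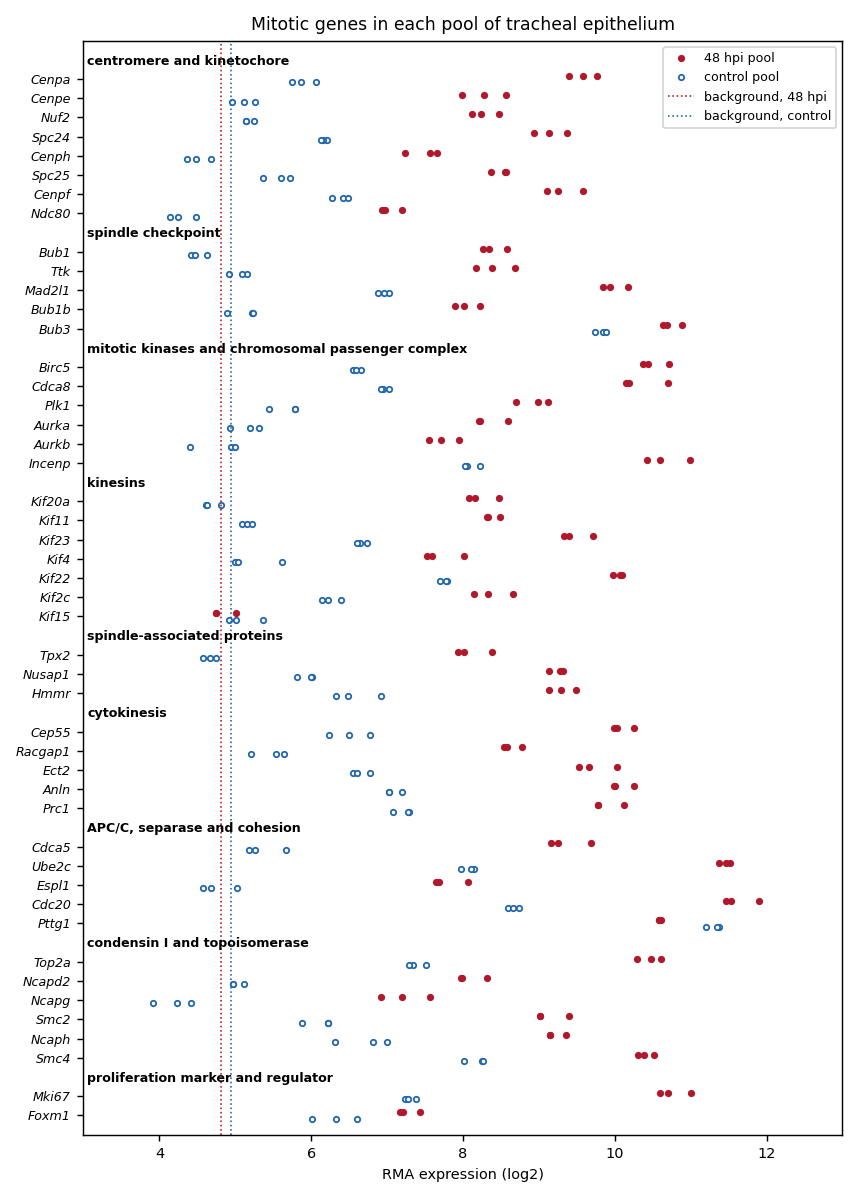
RMA expression (log2, horizontal axis) of each of the 47 genes in each pool, by role, with 48 hpi pools as filled red points and control pools as open blue points. Dotted lines mark the background levels of 4.81 at 48 hpi and 4.94 in control; the groups stand apart in 46 genes, with Kif15 overlapping and Pttg1 lower at 48 hpi.

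The 3 pools of one group did not overlap with those of the other in 46 of the 47 genes. This held for 50.4% of all genes in either direction, so separation alone is common on these arrays. The gap between the lowest 48 hpi pool and the highest control pool ran from 0.56 for Foxm1 to 3.72 for Birc5 among the genes called higher. Standard errors (SE) of the changes were 0.08 to 0.19. The largest adjusted p among the 45 genes was 0.002 (limma), and 0.0106 when any 1 array was left out. With 3 pools against 3, an exact two-sided permutation test cannot give a p below 0.1 for a single gene.

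The 48 hpi pools were not alike. Replicate 3 was the highest of the 3 pools in 42 of the 45 genes called higher, or 93.3%, compared with 74.7% of all genes called higher. Relative to the control mean, the median change of the 47 genes was 2.92, 2.91 and 3.23 in 48 hpi replicates 1, 2 and 3. The mean level of 8 secretory cell markers was 12.5, 12.5 and 11.4 in the same pools, against 13.3 to 13.4 in control, and that of 9 ciliated cell markers was 5.39, 5.49 and 4.94, against 5.61 to 6.31 in control. Replicate 3, mostly the highest for the mitotic genes, was thus the lowest for both marker sets, and their part in the mitotic values was not tested. Without this replicate, 45 genes were still called higher and the median change was 2.91.

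Many promoters of cell cycle genes that peak in mitosis carry a CHR (cell cycle genes homology region), read by complexes built on MuvB, and CCAAT boxes, read by NF-Y. RefSeq promoter windows (GRCm38.p6, 250 bases before a start to 50 after it) were at hand for 40 of the 47 genes. The letters TTTGAA, the usual CHR, occurred on either strand in the windows of 31 of the 40 genes (77.5%), compared with 15.7% of 14452 genes of the array and 20.2% of all 27025 genes with a window. CCAAT occurred in 28 of the 40 (70%), compared with 42% of the array's genes, and both motifs in 25 (62.5%), compared with 6.21%. The 2 motifs can share at most 1 base, and a match is a description of the letters and not a measured site.

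The 5 windows printed here were chosen to show both kinds: 4 hold TTTGAA and come from genes that rose, and that of Birc5, which also rose, holds neither motif. All run 5′ to 3′ on the strand of the gene, in lower case, and capitals mark TTTGAA as well as CCAAT, on either strand. They lie at chr2:164769679-164769978 (plus strand, Ube2c), chr4:118437294-118437593 (minus strand, Cdc20), chr7:122159185-122159484 (plus strand, Plk1), chr19:6084847-6085146 (plus strand, Cdca5) and chr11:117848987-117849286 (plus strand, Birc5).
Ube2c: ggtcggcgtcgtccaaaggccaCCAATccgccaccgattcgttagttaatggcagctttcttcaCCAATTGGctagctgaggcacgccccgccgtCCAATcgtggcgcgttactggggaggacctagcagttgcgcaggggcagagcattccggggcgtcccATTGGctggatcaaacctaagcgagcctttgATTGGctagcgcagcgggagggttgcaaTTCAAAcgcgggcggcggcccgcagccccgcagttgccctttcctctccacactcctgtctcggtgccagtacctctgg
Cdc20: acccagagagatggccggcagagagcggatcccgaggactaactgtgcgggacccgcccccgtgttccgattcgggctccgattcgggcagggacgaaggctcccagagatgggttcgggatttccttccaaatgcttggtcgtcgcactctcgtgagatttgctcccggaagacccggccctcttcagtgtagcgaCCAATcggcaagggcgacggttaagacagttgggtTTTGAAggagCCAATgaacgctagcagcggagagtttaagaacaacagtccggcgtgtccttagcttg
Plk1: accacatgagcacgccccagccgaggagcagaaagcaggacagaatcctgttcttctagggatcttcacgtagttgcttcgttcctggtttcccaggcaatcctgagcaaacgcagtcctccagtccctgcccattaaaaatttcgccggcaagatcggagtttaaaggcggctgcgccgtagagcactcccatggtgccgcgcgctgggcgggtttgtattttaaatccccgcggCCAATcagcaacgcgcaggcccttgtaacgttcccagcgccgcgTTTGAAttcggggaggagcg
Cdca5: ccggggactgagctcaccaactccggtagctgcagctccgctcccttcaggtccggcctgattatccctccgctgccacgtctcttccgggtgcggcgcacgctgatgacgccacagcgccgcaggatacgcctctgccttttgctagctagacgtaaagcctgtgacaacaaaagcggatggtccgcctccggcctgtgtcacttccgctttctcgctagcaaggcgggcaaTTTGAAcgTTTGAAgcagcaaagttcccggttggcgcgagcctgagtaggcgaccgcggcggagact
Birc5: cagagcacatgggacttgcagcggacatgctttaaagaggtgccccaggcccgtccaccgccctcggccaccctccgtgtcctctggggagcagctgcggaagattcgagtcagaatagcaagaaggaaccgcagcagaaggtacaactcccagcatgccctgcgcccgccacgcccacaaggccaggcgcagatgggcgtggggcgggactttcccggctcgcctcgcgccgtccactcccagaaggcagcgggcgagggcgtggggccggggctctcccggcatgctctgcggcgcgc

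The Cdc20 window held TTTGAA between a pair of CCAAT boxes, close before the start, and the Cdca5 window held a pair of TTTGAA matches only a few bases apart. In Ube2c the match lay on the opposite strand behind a row of CCAAT boxes, of which a pair on opposite strands overlap, and in Plk1 it lay just after the start. A TTTGAA match began within 50 bases of the start in 28 of the 40 genes (70%), compared with 3.32% of the array's genes, and a CCAAT match in 19 (47.5%), compared with 13.9%. Among genes that rose, Mad2l1, Ncaph, Nuf2 and Nusap1 were like Birc5 in having neither motif. So was Pttg1, but its window is set on a start that lies 1482 bases inside the outermost annotated start of the gene. That of Kif2c is set on a start 3852 bases inside. Kif15, which was not called, had TTTGAA and no CCAAT box.

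**Figure D2:**
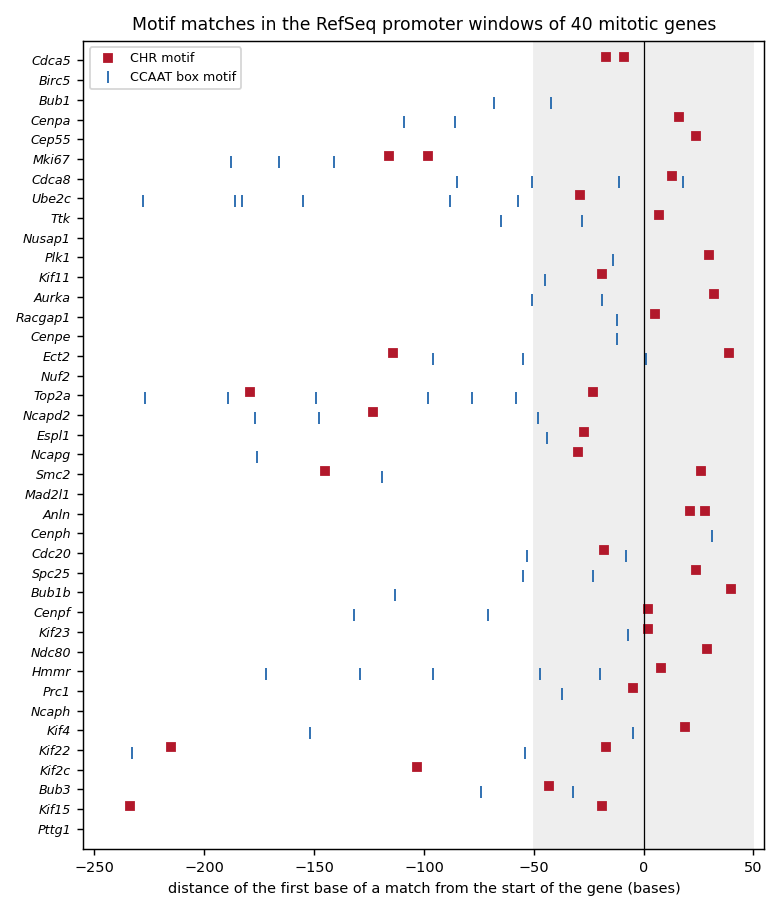
Distance in bases (horizontal axis) of each CHR match (red squares) and CCAAT match (blue bars) from the gene's start, in the first RefSeq window of 40 mitotic genes ordered by change at 48 hpi, largest at the top. The shaded band spans 50 bases on either side of the start, where 28 genes have a CHR match.

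All 8 genes of the centromere and the kinetochore were higher at 48 hpi, with a median change of 2.98. Cenpa, the histone H3 variant that marks the centromere, rose most. Its levels were 9.58, 9.40 and 9.77 at 48 hpi, against 5.75, 6.06 and 5.87 in control, a change of 3.69 (SE 0.13, limma adjusted p = 1.88e-06). Every 48 hpi pool stood more than 3 units above every control pool.

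The NDC80 complex is the microtubule grip of the outer kinetochore, and its 4 subunits are encoded by Ndc80, Nuf2, Spc24 and Spc25. Nuf2 levels were 8.12, 8.23 and 8.48 at 48 hpi, against 5.15, 5.14 and 5.24 in control. Ndc80 levels were 6.93, 6.97 and 7.20 at 48 hpi, against 4.13, 4.48 and 4.25 in control, all within background, a rise of at least 4.28-fold. Changes of the 4 subunits were 2.75 for Ndc80, 2.94 for Spc25, 2.98 for Spc24 and 3.10 for Nuf2, and their 95% confidence intervals overlapped. Cenpe, a kinesin that carries chromosomes to the middle of the spindle, changed by 3.17 (SE 0.15), and Cenpf, a large protein of the outer layer, by 2.91 (SE 0.13). Cenph, of the inner kinetochore, was within background in control and rose at least 5.85-fold, with a measured change of 2.97 (SE 0.14).

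Among the 5 spindle checkpoint genes, all higher, 4 changed by about 3 or more and Bub3 by less than 1. Bub1, a checkpoint kinase at kinetochores, had levels of 8.34, 8.27 and 8.58 at 48 hpi, against 4.63, 4.42 and 4.47 in control. The control values are within background, so the rise was at least 11.0-fold on this probe set, where the measured change of 3.89 (SE 0.11) is 14.9-fold. On the other Bub1 probe set, also called higher, the measured change was 1.40 and the rise at least 1.59-fold. Ttk, the kinase that starts checkpoint signaling, changed by 3.36 (SE 0.14), Mad2l1, whose protein binds and holds Cdc20, by 3.02 (SE 0.11), and Bub1b, part of the same inhibitory complex, by 2.93 (SE 0.13).

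Bub3, the adaptor that brings Bub1 and Bub1b to the kinetochore, had levels of 10.69, 10.63 and 10.89 at 48 hpi, against 9.74, 9.84 and 9.89 in control. The groups did not overlap, and the change was 0.91 (SE 0.10, limma adjusted p = 0.000335). Bub3 minus Bub1, taken within each pool, was 2.34 ± 0.03 at 48 hpi and 5.32 ± 0.18 in control (SD, n = 3 each). This difference changed by -2.98, or by -2.55 with Bub1 at its background bound in control. Of the 5 probe sets of Bub3, 3 were called higher.

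All 6 genes of the mitotic kinases and the chromosomal passenger complex were higher, with a median change of 3.23. This complex corrects wrong attachments, and its subunits are the kinase Aurkb with Incenp, Birc5 and Cdca8. Birc5, which encodes survivin, had levels of 10.43, 10.37 and 10.71 at 48 hpi, against 6.54, 6.65 and 6.59 in control, the widest gap of the list. Cdca8, which encodes borealin, had levels of 10.18, 10.15 and 10.71 at 48 hpi, against 6.95, 7.02 and 6.92 in control. On the brightest probe sets, Incenp, the scaffold, changed by 2.57 with a confidence interval of 2.23 to 2.90, below that of Birc5, at 3.66 to 4.16. The other probe sets of Incenp changed by 2.62, 1.07, 0.68 and 0.16, and Birc5 has only 1. These intervals cover the spread between pools and not differences in probe response. A difference between the subunits themselves was thus not tested. Levels of Aurkb were 7.71, 7.55 and 7.95 at 48 hpi, against 4.95, 5.00 and 4.40 in control, where the mean was within background, so that its rise was at least 6.95-fold.

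Plk1, a kinase needed from mitotic entry to cytokinesis, changed by 3.26 (SE 0.14), and its levels were 8.99, 8.69 and 9.12 at 48 hpi, against 5.44, 5.78 and 5.79 in control. Aurka, the kinase of the spindle poles, changed by 3.20 (SE 0.14), with 8.23, 8.21 and 8.60 at 48 hpi, against 5.32, 5.19 and 4.93 in control. Neither gene's groups came near to overlapping. Tpx2, which switches Aurka on at the spindle, had 8.02, 7.94 and 8.38 at 48 hpi, against 4.75, 4.67 and 4.58 in control. These control values are all within background, a rise of at least 9.04-fold on the brightest probe set. Another Tpx2 probe set rose at least 4.68-fold. A further pair, above background in both groups, changed by -0.16 and -0.12 and were not called. The other spindle proteins of the list, Nusap1, which bundles microtubules, and Hmmr, a spindle assembly factor, changed by 3.30 (SE 0.10) and 2.73 (SE 0.16).

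**Figure D3:**
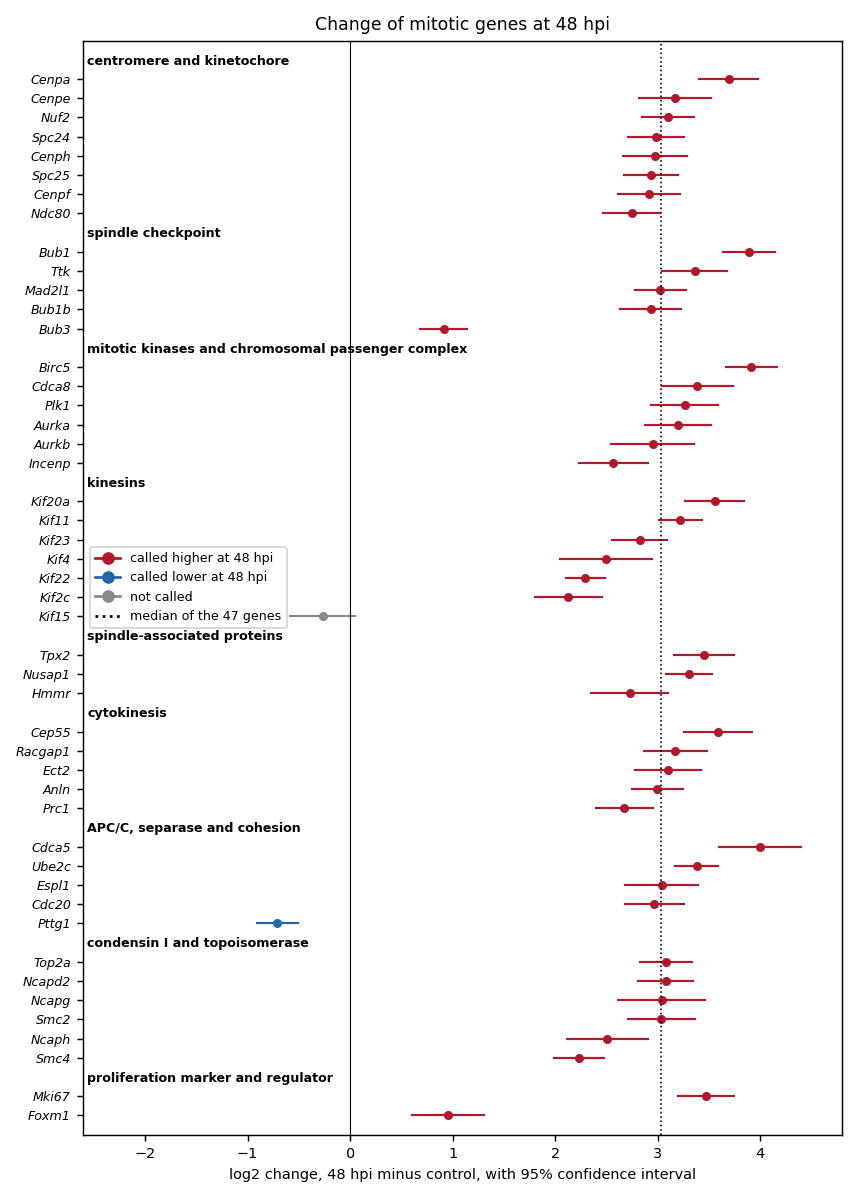
Log2 change, 48 hpi minus control (horizontal axis), of each of the 47 genes by role, with the 95% confidence interval from limma as a bar; red, blue and grey mark genes called higher, called lower and not called. The dotted line is the median of 3.04, and Bub3, Foxm1, Kif15 and Pttg1 lie far to its left.

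Of 7 kinesin genes, 6 were higher and Kif15 was not called, with a median change of 2.49. Kif20a, which carries the passenger complex to the midzone in anaphase, had the largest change of these, 3.55 (SE 0.12), with levels of 8.16, 8.07 and 8.48 at 48 hpi, against 4.62, 4.81 and 4.63 in control. All 3 control pools were within background, so its rise was at least 9.85-fold. Kif11, the motor that pushes spindle poles apart, changed by 3.22 (SE 0.09). Kif23, of the central spindle, changed by 2.82 (SE 0.12), and the chromosome-arm motors Kif4 and Kif22 by 2.49 (SE 0.19) and 2.29 (SE 0.08). Kif2c, which takes microtubules apart at centromeres, had the smallest change of the 6, 2.13 (SE 0.14), with levels of 8.33, 8.15 and 8.66 at 48 hpi, against 6.22, 6.39 and 6.14 in control.

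Kif15 can stand in for Kif11 in keeping a spindle bipolar. Its only probe set gave 5.01, 4.75 and 4.74 at 48 hpi, against 5.37, 5.01 and 4.92 in control, values that overlap and lie close to background. The change was -0.27, with a confidence interval of -0.59 to 0.05 (limma adjusted p = 0.176), and it turned to 0.077 once arrays were set to equal hybridization controls. A probe set this dim gives little information on the level of its RNA.

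All 5 cytokinesis genes were higher, with a median change of 3.10. Cep55, which recruits the abscission machinery to the midbody, had levels of 10.00, 10.03 and 10.26 at 48 hpi, against values between 6.24 and 6.77 in control, a change of 3.59 (SE 0.15). Racgap1, which together with Kif23 forms the centralspindlin complex, changed by 3.17 (SE 0.13), and Ect2, the exchange factor that centralspindlin brings to the cell equator to activate RhoA, by 3.10 (SE 0.14). Anln, an actin-binding scaffold of the cleavage furrow, changed by 3.00 (SE 0.11) and Prc1, which bundles midzone microtubules, by 2.67 (SE 0.12). No 48 hpi pool of these 5 genes fell within the range of the control pools.

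Of 5 genes of the APC/C, separase and cohesion, 4 were higher and 1 was lower. Cdca5 encodes sororin, which locks cohesin on replicated chromatids, and its change of 3.99 (SE 0.17, limma adjusted p = 3.96e-06) was the largest of the 47 genes. Its levels were 9.16, 9.25 and 9.69 at 48 hpi, against 5.18, 5.27 and 5.66 in control. Ube2c, the APC/C's own ubiquitin-conjugating enzyme, had levels of 11.47, 11.38 and 11.52 at 48 hpi, against 8.14, 7.98 and 8.11 in control. For both genes every 48 hpi pool was far above every control pool.

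Cdc20, the activator that the checkpoint holds back, had levels of 11.46, 11.53 and 11.89 at 48 hpi, against 8.59, 8.66 and 8.74 in control, a change of 2.97 (SE 0.13). Espl1, which encodes separase, had 7.64, 7.68 and 8.07 at 48 hpi, against 4.58, 5.02 and 4.68 in control. The control mean of Espl1 was within background, so its rise was at least 7.25-fold.

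Pttg1 encodes securin, the inhibitor of separase that the APC/C destroys, and it went the other way. Its levels were 10.58, 10.61 and 10.59 at 48 hpi, against 11.20, 11.37 and 11.35 in control. The groups did not overlap, and the change was -0.71 (SE 0.09, limma adjusted p = 0.000537). Of its other probe sets, 1 was also called lower, with a change of -0.30, and 1 was not called, with -0.04. With arrays set to equal hybridization controls, which moves the median of all genes to 0.32, the change was -0.37 and was no longer called (limma adjusted p = 0.218). Pttg1 minus Cdc20, taken within each pool, was -1.04 ± 0.23 at 48 hpi and 2.64 ± 0.06 in control (SD, n = 3 each), a change of -3.68, and of -3.70 after repeated quantile normalization. The signals of securin and Cdc20 thus changed unequally, by an amount that a shift of a whole array leaves as it is. Pttg1 minus Espl1 changed by -3.75, or by -3.57 with Espl1 at its background bound in control.

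All 6 genes of condensin I and topoisomerase were higher, with a median change of 3.04. Top2a, which untangles sister DNA, had levels of 10.48, 10.30 and 10.61 at 48 hpi, against 7.34, 7.29 and 7.52 in control, a change of 3.08 (SE 0.11). Condensin I, which folds mitotic chromosomes, has 3 subunits of its own, of which Ncapd2 changed by 3.08 (SE 0.12) and Ncaph by 2.51 (SE 0.17). The other, Ncapg, was within background in control and rose at least 4.88-fold, with a measured change of 3.04 (SE 0.18). The ATPase subunits Smc2 and Smc4, which condensin II also uses, changed by 3.04 (SE 0.14) and 2.23 (SE 0.11), and their confidence intervals, 2.71 to 3.36 and 1.99 to 2.47, did not overlap. These intervals, too, leave out differences in probe response. Smc4 levels were 10.39, 10.30 and 10.52 at 48 hpi, against 8.02, 8.25 and 8.26 in control.

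The last group holds Mki67, the proliferation marker Ki-67 that coats mitotic chromosomes, and Foxm1, a transcription factor that drives many genes of this list in dividing cells. Mki67 levels were 10.59, 10.70 and 11.00 at 48 hpi, against 7.23, 7.38 and 7.27 in control, a change of 3.47 (SE 0.12). Foxm1 had 7.17, 7.21 and 7.43 at 48 hpi, against 6.61, 6.01 and 6.32 in control, a change of 0.95 (SE 0.15, limma adjusted p = 0.00196) on the brightest probe set. Both genes were clear of overlap, but they moved by very different amounts, with Foxm1 minus Mki67 at -3.50 ± 0.08 at 48 hpi and -0.98 ± 0.38 in control (SD, n = 3 each). Size depended on the probe set for Foxm1, and not for this gene alone. Its other 3 probe sets changed by 2.01, 1.05 and -0.03, of which the first and second were called higher and the third was within background in both groups.

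Probe sets that share a target are not replicates, but they show how far the choice of probe set matters. Of all 110 probe sets of the 47 genes, 89 were called higher and 2, both of Pttg1, lower, where 17.7% of all probe sets were higher and 15.2% lower. Of the 19 that were not called, 14 were within background in both groups. Among 33 genes with more than 1 probe set, all probe sets were higher for 18 and only some for 14, and for no gene did probe sets move in opposite directions by call. Sizes could differ even between probe sets above background at 48 hpi. They were 2.29, 3.51 and 1.88 for Kif22 and 2.13, 1.33 and 0.41 for Kif2c. For Smc4 they were close, at 2.23, 2.41 and 2.39. Rankings of genes by size, and folds given as "at least", therefore hold for the brightest probe sets only. The 5 probe sets that were above background in a group but not called were those of Kif15, Pttg1 and Top2a, and a pair of Tpx2. For Top2a the second probe set gave 5.68, 5.99 and 6.85 at 48 hpi, against 5.56, 5.76 and 5.45 in control, where 48 hpi replicate 1 fell among the control values.

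**Figure D4:**
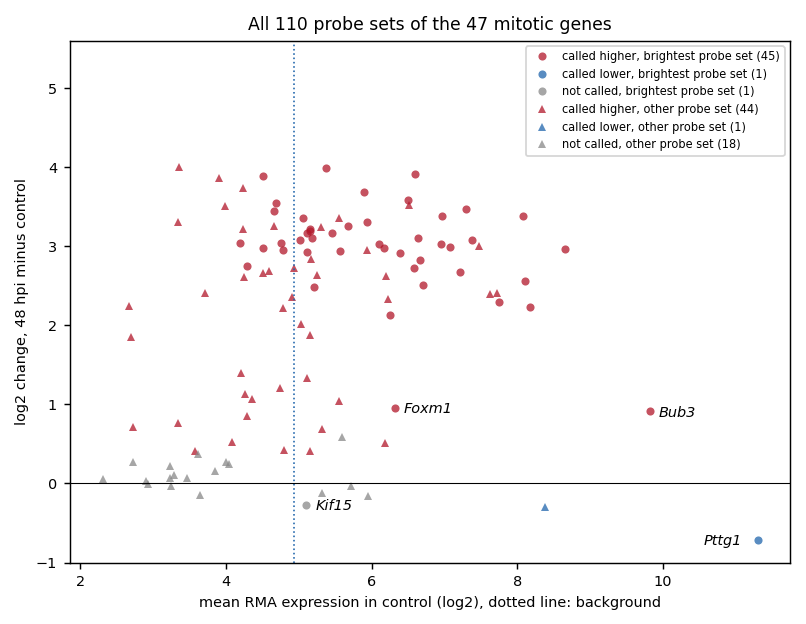
Mean RMA expression in control (log2, horizontal axis) and log2 change, 48 hpi minus control (vertical axis), of all 110 probe sets, with circles for the brightest probe set of a gene, triangles for the others, and red, blue and grey for called higher, called lower and not called. Most grey points lie left of the dotted background level of 4.94, and both blue points belong to Pttg1.

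Other genes of the same structures were then counted, from 12 lists of kinetochore, spindle and kinesin genes that were also put together with earlier results known. Of 141 genes measured, 87 (61.7%) were higher and 16 lower, with a median change of 0.60. Among all genes, 19.4% were higher, a share to set beside each count of higher genes below. The 16 are 11.3% of these genes, fewer than the 17.5% lower among all genes, and 2 of them were left with arrays set to equal hybridization controls. Medians of the lists ran from 2.18 to -0.25, against 3.04 for the 47 genes, and the lists were not tested against each other.

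Most of the rest of the kinetochore was higher too, but by less in the median than the 8 genes above (2.98). Measured changes ran from 0.34 to 3.47 in the inner kinetochore list, and from 0.09 to 3.15 in the outer one. All 16 measured genes of the inner kinetochore and of CENP-A loading were higher (median 1.97), among them Cenpk with 3.19 and Cenpu with 2.61, both subunits of the constitutive network on centromeric chromatin. In the same network Cenpp and Cenpl were within background in control and rose at least 6.11-fold and 1.98-fold. With the 4 genes of this kind at their bound the median of the list was 1.66. In the outer kinetochore and among the proteins that silence the checkpoint or shield cohesin, 14 of 15 were higher (median 2.11, or 1.82 with 4 genes at their bound). Spdl1, a dynein adaptor, changed by 2.79. Control means of Sgo1, the shugoshin that protects centromeric cohesin, and of Ska1 and Ska3, of a complex that tracks microtubule ends, were within background, and these rose at least 4.96-fold, 5.29-fold and 1.14-fold. The gene not called was Nsl1, of the MIS12 complex, with 0.09 (limma adjusted p = 0.66).

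The core of the APC/C changed by smaller amounts than Cdc20 and Ube2c. Of 14 core subunits, 9 were higher and 1, Anapc13, was lower, with a median change of 0.38, and all 14 were above background in both groups. Anapc13 was at -0.14 and not called at equal hybridization controls. Anapc15 changed by 1.90, Anapc1, the scaffold, by 1.09, Cdc27 by 0.80 and Anapc7 by 0.59. Of its regulators, Fbxo5, the inhibitor also called Emi1, changed by 2.84, Ube2s, which extends ubiquitin chains, by 1.29 and Fzr1, the activator of late mitosis and G1, by 0.75, all called higher.

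Cohesin genes were partly higher and condensin II genes were all higher. Of 12 cohesin genes, 6 were higher and 1, the loader subunit Mau2, was lower by 0.60, with a median change of 0.42. This 1 gene is 8.33% of the list, against 17.5% lower among all genes. Mau2 was at -0.26 and not called at equal hybridization controls. Esco2, which acetylates cohesin during S phase, was within background in control and rose at least 3.84-fold. The core subunit Rad21 changed by 0.85 and the release factor Wapl by 0.99. In condensin II all 3 subunits were higher, but by 3.38 for Ncapg2, 1.53 for Ncapd3 and 0.52 for Ncaph2, beside 3.08 for Ncapd2 and 2.51 for Ncaph of condensin I.

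Other kinesins were counted in a mitotic list and a transport and ciliary list. Of 6 genes placed in the mitotic list, not all of them spindle motors, 5 were higher (median 2.18). Kifc1 changed by 2.53, Kif18b by 2.44 and Kif24 by 0.99. Kif20b and Kif18a, within background in control, were at least 9.61-fold and 3.01-fold higher. Kif14, at 0.18, was within background in both groups. Of 23 transport and ciliary kinesins, 1, Kif5b, was higher (4.35%) and 9 were lower (39.1%), with a median of -0.25. Among all genes, 19.4% were higher and 17.5% lower. The 9 include Kif6, a kinesin of motile cilia whose 48 hpi mean was within background, with -1.02. They also include the transport motors Kif1b with -0.84, Kif21b with -0.60 and Kif21a with -0.56. With arrays set to equal hybridization controls the median turned to 0.09 and 2 of the 9 lower calls were left, Kif6 and Kif26b. Neither call held in that setting when each gene's own variance was used. Markers of ciliated cells were lower at the same time, with 7 of 9 called lower and none higher (3 and 1 at equal hybridization controls), and their part in the kinesin values was not tested.

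**Figure D5:**
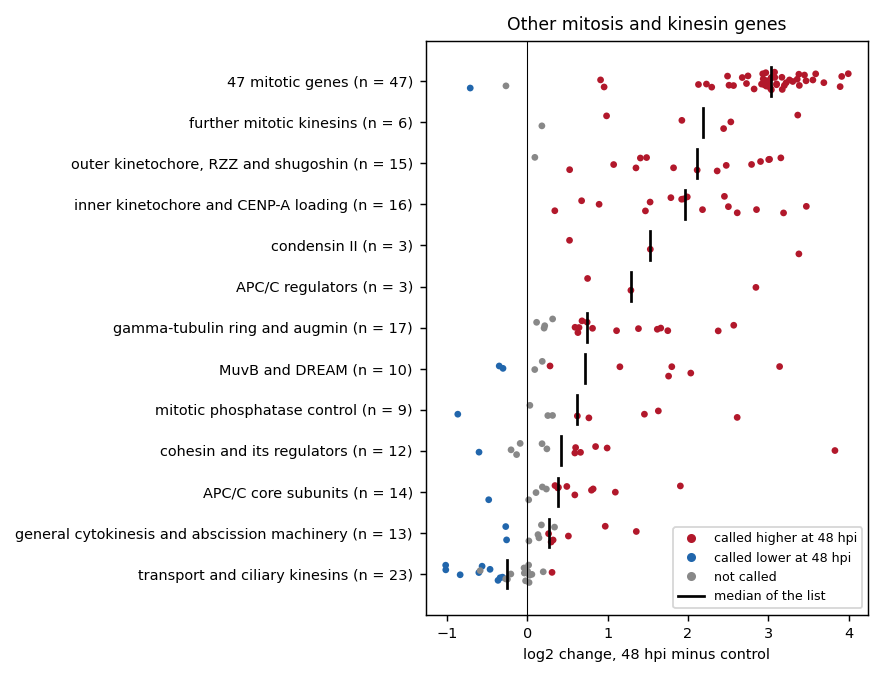
Log2 change, 48 hpi minus control (horizontal axis), of the 47 mitotic genes and of the genes of 12 other lists (rows, number of genes in brackets); red, blue and grey points were called higher, called lower and not called, and black bars are list medians. Medians run from 3.04 for the mitotic genes to -0.25 for the transport and ciliary kinesins, which was 0.09 with arrays set to equal hybridization controls.

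Spindle nucleation and the control of mitotic entry and exit were partly higher. Of 17 genes of the gamma-tubulin ring and augmin, which seed new spindle microtubules, 13 were higher and none lower (median 0.74), with the augmin subunits Haus4 at 2.57, Haus6 at 2.38, Haus1 at 1.62 and Haus8 at 1.11. Of 9 genes that set mitotic phosphorylation, 5 were higher and 1, the phosphatase Cdc14a, lower (median 0.62). Cdc14a was at -0.52 and not called at equal hybridization controls. Cdc25b, which activates the mitotic kinase Cdk1, changed by 1.63, its relative Cdc25c was within background in control and rose at least 4.41-fold, and Mastl and Arpp19, which inhibit the opposing phosphatase PP2A, changed by 1.46 and 0.77.

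Of 10 genes for parts or partners of MuvB and DREAM, 6 were higher (median 0.72). The CHR is read by the complexes, not by each of these products. Mybl2, which joins MuvB in dividing cells, and the MuvB subunit Lin9 were within background in control and rose at least 4.90-fold and 2.15-fold. Tfdp1, the partner of E2F factors, changed by 2.03 and the pocket protein Rbl1 by 1.76. The 2 called lower, Rbl2 and Lin52, are 20% of the list, near the share of all genes, and at equal hybridization controls they were at -0.01 and 0.04. Of general cytokinesis and abscission genes, 6 of 13 were higher with a median of 0.26. The 2 called lower, Chmp4b and Chmp4c of the ESCRT-III membrane-cutting complex, are 15.4% of the list, near the share of all genes, and turned to 0.07 and 0.08 at equal hybridization controls. Cit, the citron kinase of the midbody, changed by 1.36 and Septin7, of the septin ring, by 0.97, against 2.67 to 3.59 for the 5 cytokinesis genes of the main list.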

How the data were processed

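RNA from 3 pools of tracheal epithelium at 48 hpi and 3 control pools was hybridized to Affymetrix mouse arrays after amplification. The deposited values are log2 expression after RMA, which the authors ran in Partek 6.5, and the submitters' processing notes also name Affymetrix Expression Console 1.1. The labels call the arrays biological replicates. No detection calls were used, and values ran from 2.01 to 14.6. The mesenchymal arrays were not analysed here, so the study's two-way ANOVA with tissue as a factor was not run.

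Of 45101 probe sets listed, 34945 had exactly 1 gene symbol and were no control probe sets. Of these, 34741 matched RefSeq genes of GRCm38.p6 by Entrez ID. 48 hpi was set against control in limma (version 3.58.1, R 4.3.3) with its default empirical Bayes step and no block, with Benjamini-Hochberg adjustment over 18193 genes or 34945 probe sets. The test was checked on simulated data. The members and the lists were chosen with earlier results of these data known. The named genes are all 47 members and, for each further list, up to 4 called genes with the smallest p, or any gene of a list of 6 or fewer. Nsl1, Anapc13, Kif5b, Cdc14a, Rbl2, Lin52, Kif26b, Chmp4b and Chmp4c were named after their values were seen, since they make up small counts. A fold given as "at least" sets the 48 hpi mean of a probe set, the brightest unless another is named, against the control background. It was used where the control mean lay within that background. Precision is limited by the number of arrays, 3 per group.

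Alternatives were a mean-variance trend, robust estimates, array weights, a per-gene t-test with equal variances, other scalings, a filter on dim probe sets, other probe set choices, the replicate number as a block, leaving out each array and stricter thresholds. The equal hybridization controls with each gene's own variance were added after seeing the data. Plots were drawn with matplotlib 3.10.9.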

Additional observations from a re-analysis of the deposited data

Results flagged for a closer look

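A probe set that the annotation assigns to several genes, Tex52, Pebp1 and Foxm1, lay outside the comparison because it names no single gene. It gave 7.47, 7.50 and 8.05 at 48 hpi, against 4.29, 4.22 and 4.03 in control, where it was within background. Its change, 3.49 on the log2 scale, is larger than that of any probe set with Foxm1 as its only symbol, and which of the 3 genes it measures was not tested.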

How the results depend on the processing

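Under every alternative but the one added later, 45 of the 47 genes were called higher, or 43 where a change of at least 1 was also asked. Setting arrays to equal hybridization controls adds a spread shared by all genes, which limma pooled, so its p-values there are too small. With each gene's own variance in that setting, chosen after seeing the data, 37 of the 47 genes were higher and 0 lower, with 37 probe sets higher and 0 lower and 19 genes of the further lists higher and 0 lower, while the median change stayed 3.38. Pttg1 was no longer called at equal hybridization controls or with a change of at least 1, which left 0 genes lower. The probe sets called lower numbered 2, against 0 at equal hybridization controls or a change of at least 1, and 1 at an adjusted p below 0.01, and 1 to 2 when an array was left out. The median change was 3.04, against 3.38 at equal hybridization controls and 2.56 with the mean of a gene's probe sets. Kif15 turned to 0.077 at equal hybridization controls. Of the further lists, 87 genes were higher, against 53 with a change of at least 1. Their lower calls, 16, were less stable: 9 by a per-gene t-test with Benjamini-Hochberg, 2 at equal hybridization controls, 9 with the mean of probe sets, 6 at an adjusted p below 0.01, 2 with a change of at least 1, and 7 to 14 when an array was left out (9 without 48 hpi replicate 2, 9 without control replicate 2 and 7 without control replicate 3). The cause was not tested.

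Same-numbered pools deviated together only weakly (correlations of 0.07, 0.16 and 0.03). Among the 48 hpi pools, replicates 1 and 2 correlated best with the control of the same number. Replicate 3 correlated slightly better with control replicate 1 (0.04) than with control replicate 3 (0.03). The numbers were not taken to pair the pools, a question that such weak correlations do not settle. With the replicate block, 45 member genes were higher and 1 lower, 90 probe sets were higher and 1 lower, and 85 genes of the further lists were higher and 13 lower.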
